A study of Homo sapiens with 4 samples.

Results

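Natural antisense genes are transcribed from the strand opposite another gene, and a symbol ending in -AS1, -AS2 or -AS3 marks such a gene, named after the gene it opposes (its sense partner). Of 62443 genes listed for HGC-27 cells, 1810 had such a symbol, and 845 of these were listed at 0 in every library. The 140 described here with their partners were chosen by their level, a mean of 1 FPKM or more across all 4 libraries (FPKM is a fragment count divided by transcript length and library size), so their levels are a description. They comprised 132 genes ending in -AS1, 6 in -AS2 and 2 in -AS3, and 137 of them were annotated as long noncoding RNA (lncRNA) and 3, SRP54-AS1, SVIL-AS1 and EMC3-AS1, as transcribed pseudogenes. Because the mean runs over control and treated libraries, 32 of the 140 reached 1 FPKM in the control mean alone and 4 in the treated mean alone. The members with the lowest means were TIPARP-AS1, KTN1-AS1 and PITPNA-AS1, each at 1.00 FPKM, and the genes just outside were WARS2-AS1 at 0.962, SNX10-AS1 at 0.946 and MCM3AP-AS1 at 0.940 FPKM. In Con 1, Con 2, GLUP 1 and GLUP 2 in turn, TIPARP-AS1 was at 0.618, 1.82, 0.451 and 1.13 FPKM, KTN1-AS1 at 1.24, 1.40, 0.690 and 0.684, and PITPNA-AS1 at 1.15, 0.789, 0.623 and 1.44. In the same order, WARS2-AS1 was at 1.16, 0.682, 1.18 and 0.824 FPKM, SNX10-AS1 at 1.07, 2.39, 0.243 and 0.0828, and MCM3AP-AS1 at 1.25, 0.709, 0.858 and 0.948. Of these genes, KTN1-AS1 and SNX10-AS1 had both GLUP values below both Con values.

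HGC-27 is a cell line from a human gastric cancer, and GLUP is a synthetic linker peptide that the study built to drive TEAD4, a DNA-binding factor of the Hippo pathway, into repressive condensates. There were 2 libraries from HGC-27 cells given GLUP at 10 μg/ml (GLUP 1 and 2) and 2 from control HGC-27 cells (Con 1 and 2), with no genetic change in either group. Exposure is given as 12 h in the study's results and as 48 h in its methods. The control cells received the peptide's stocking buffer according to the methods, whereas the labels record no treatment.

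Antisense transcription can act on its partner in cis, through the act of transcription across the gene, chromatin changes at a shared promoter or base pairing of the transcripts, and many antisense RNAs have no known effect. Where the starts of a pair face away from each other (head-to-head), both transcripts can leave 1 nucleosome-free promoter region, so that their levels often move together. Antisense lncRNAs are usually far less abundant than coding mRNAs and are mostly nuclear.

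The start regions of 4 genes on which the results turn are shown first, from RefSeq on GRCh38.p14. Each holds 300 bases of the gene's own strand, 250 before to 50 after the start. TUBA1B-AS1 is the antisense gene with the highest level and the largest positive change. SRP54-AS1 has the largest negative one. PSMB8-AS1 and BSG each belong to a pair whose genes moved apart. The windows lie at chr12:49131356-49131655 on the plus strand (TUBA1B-AS1), chr14:34982517-34982816 on the minus strand (SRP54-AS1), chr6:32843836-32844135 on the plus strand (PSMB8-AS1) and chr19:571033-571332 on the plus strand (BSG). Capitals mark the letters GGAATG or its reverse complement CATTCC, the core that TEAD factors bind, and GAAA followed after 2 bases by GAAA (or TTTC by TTTC on the other strand), letters of the interferon-stimulated response element.
TUBA1B-AS1: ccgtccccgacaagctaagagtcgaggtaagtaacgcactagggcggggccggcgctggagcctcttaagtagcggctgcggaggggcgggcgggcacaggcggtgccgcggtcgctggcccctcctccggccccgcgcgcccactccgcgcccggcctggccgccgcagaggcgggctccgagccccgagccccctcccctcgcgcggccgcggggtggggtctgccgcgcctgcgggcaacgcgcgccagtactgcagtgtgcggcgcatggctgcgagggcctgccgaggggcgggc
SRP54-AS1: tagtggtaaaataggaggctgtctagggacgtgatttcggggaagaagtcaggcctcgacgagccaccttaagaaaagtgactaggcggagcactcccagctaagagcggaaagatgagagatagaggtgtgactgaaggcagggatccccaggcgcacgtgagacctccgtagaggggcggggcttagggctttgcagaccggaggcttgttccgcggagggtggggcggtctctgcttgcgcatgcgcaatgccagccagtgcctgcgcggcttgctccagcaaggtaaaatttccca
PSMB8-AS1: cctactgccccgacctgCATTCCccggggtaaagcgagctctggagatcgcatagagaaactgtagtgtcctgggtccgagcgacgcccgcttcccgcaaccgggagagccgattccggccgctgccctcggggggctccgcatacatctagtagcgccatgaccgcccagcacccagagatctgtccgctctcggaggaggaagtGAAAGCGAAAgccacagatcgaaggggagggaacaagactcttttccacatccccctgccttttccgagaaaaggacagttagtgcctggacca
BSG: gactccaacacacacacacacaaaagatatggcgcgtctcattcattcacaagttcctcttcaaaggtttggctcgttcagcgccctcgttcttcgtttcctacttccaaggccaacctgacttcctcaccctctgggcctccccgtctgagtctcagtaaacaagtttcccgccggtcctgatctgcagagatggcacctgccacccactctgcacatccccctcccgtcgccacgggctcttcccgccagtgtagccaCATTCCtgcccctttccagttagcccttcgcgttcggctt

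The windows of PSMB8-AS1 and BSG each held CATTCC once, and that of PSMB8-AS1 also held GAAAGCGAAA. Those of TUBA1B-AS1 and SRP54-AS1 held neither. Among the other windows of pairs that moved apart, only that of CNPY2-AS1 held the TEAD letters. Those of PSMB8, BSG-AS1 and CNPY2, and of both genes of the HLA-F, MAGEA4 and PCBP1 pairs, did not. The response element letters occurred in the windows of HLA-F and MAGEA4-AS1, and in none of the others just named. The TUBA1B-AS1 window was 78.0% G and C and shared 290 bases with the window of TUBA1B on the other strand, since the RefSeq starts of the pair lie 211 bases apart. The TEAD letters occurred in 15 of 113 member promoters found in RefSeq (13.3%), in 15 of 116 partner promoters (12.9%) and in 4928 of all 35116 promoters of the same length (14.0%). Among the 78 member promoters of genes that were lower in both GLUP libraries than in both Con libraries, 9 held them (11.5%). The response element letters, which were chosen after the PSMB8-AS1 window had been seen, occurred in 5 member promoters (4.42%), 8 partner promoters (6.90%) and 3.57% of all promoters. A match describes the letters in this window only. The search read both strands, and the letters searched do not overlap each other in these windows.

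The summed FPKM of all genes was close in the 4 libraries, from 909735 to 949919, and the low values show no steps of single reads, which leaves the sequencing depth unknown. Across the 7588 genes tested on the log2(FPKM + 1) scale, the GLUP libraries correlated at r = 0.99 and the Con libraries at 0.93, and Con 2 stood furthest from both GLUP libraries (0.87 and 0.89). Con 1 correlated more closely with GLUP 1 and GLUP 2 (0.95 and 0.96) than with Con 2. Of the epithelial markers, KRT8, KRT18 and KRT19 lay between 0.764 and 2.25 FPKM, whereas EPCAM and CDH1 were at most 0.124 FPKM. Of the mesenchymal markers, VIM lay between 293 and 387 FPKM, FN1 was at 1.15 and 3.25 FPKM in Con and 0.655 and 0.671 in GLUP, and CDH2 was at most 0.0508 FPKM. CD3E and CDH5, markers of T cells and endothelium, were listed at 0, and PTPRC was above 0 in Con 2 only, at 0.0394 FPKM. The fibroblast markers COL3A1 (15.3 to 21.5 FPKM) and DCN (20.1 to 41.3 FPKM) were present in every library. With 4 libraries in all, p-values measure only the spread between these libraries.

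Most expressed antisense genes were scarce. The mean lay between 1 and 2 FPKM for 59 of them, between 2 and 5 for 47 and between 5 and 50 for 32. TUBA1B-AS1 and MIF-AS1 were the 2 above 50 FPKM, with means of 608 and 158 FPKM. The median level over the 140 genes was 2.68 FPKM in Con 1 and 3.33 in Con 2, against 1.57 in GLUP 1 and 1.60 in GLUP 2. Their summed level went the other way, at 1026 and 904 FPKM in the Con libraries and 1922 and 1468 in the GLUP libraries, and TUBA1B-AS1 made up 24.5%, 3.67%, 67.9% and 57.6% of that sum. Without TUBA1B-AS1 and MIF-AS1 the sums were 654 and 806 FPKM in Con and 367 and 427 in GLUP. ARF4-AS1 in GLUP 2 was the only zero among the members.

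Most antisense genes were lower under GLUP than in the control. The log2 fold change, GLUP minus Con, was below 0 for 119 of 140 (85%), against 66.7% of all genes tested, and its median was -0.60, against -0.36 over all genes. Both GLUP libraries lay below both Con libraries for 92 members (65.7%), against 49.7% of all genes, and above them for 12 (8.57%), against 17.5%. In bulk RNA, fewer cells of a type and less of an RNA per cell cannot be told apart. The 32 members that reached the level filter through the Con mean alone had to be lower in GLUP, so these counts describe the members and do not support a direction. Among the 34 members that averaged 5 FPKM or more, 30 were lower (88.2%), with a median of -0.72. Of the 3390 genes tested at that level, 65.1% were lower, with a median of -0.43.

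No member passed the test. With limma and Benjamini-Hochberg adjustment over all 7588 genes, 0 antisense genes had an adjusted p under 0.05 with a fold over 2 (smallest adjusted p = 0.10), and 2 genes of all tested did (0.0264%). A looser mark used below was an unadjusted p under 0.05 with a fold over 2. At it, 24 members were lower (17.1%, background 14.5%) and 2 were higher (1.43%, background 4.67%). An unadjusted p under 0.05 at any fold was found for 50 of 140 members and for 2409 of all 7588 genes. On these values the share of lower members at the looser mark was near that of all genes. Of the 34 members of at least 5 FPKM, 12 were lower at it (35.3%), against 20.8% of all genes tested at that level. The count of lower members moved when 1 library was left out, and so did the share of all genes. The member median was -0.66 without Con 1 and -0.48 without Con 2, against -0.34 over all genes in both. It was -0.57 without GLUP 1 and -0.62 without GLUP 2, against -0.36 and -0.34.

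The general downward shift depended on the scale. Centring each library on its median moved the median of all genes from -0.36 to -0.01 and that of the members to -0.25, with 96 members below 0 (68.6%, against 50.6% of all genes) and 11 lower at the looser mark. Centring also changed the split over all genes at that mark, from 14.5% lower and 4.67% higher to 5.64% lower and 10.5% higher. Removing the trend along GC content gave a member median of -0.26, with 89 below 0 (63.6%, against 49.96%), and 18 lower at the looser mark (12.9%, against 4.57% of all genes). The median GC content of the longest transcript was 48% for members and 46.5% for all genes tested.

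**Figure D1:**
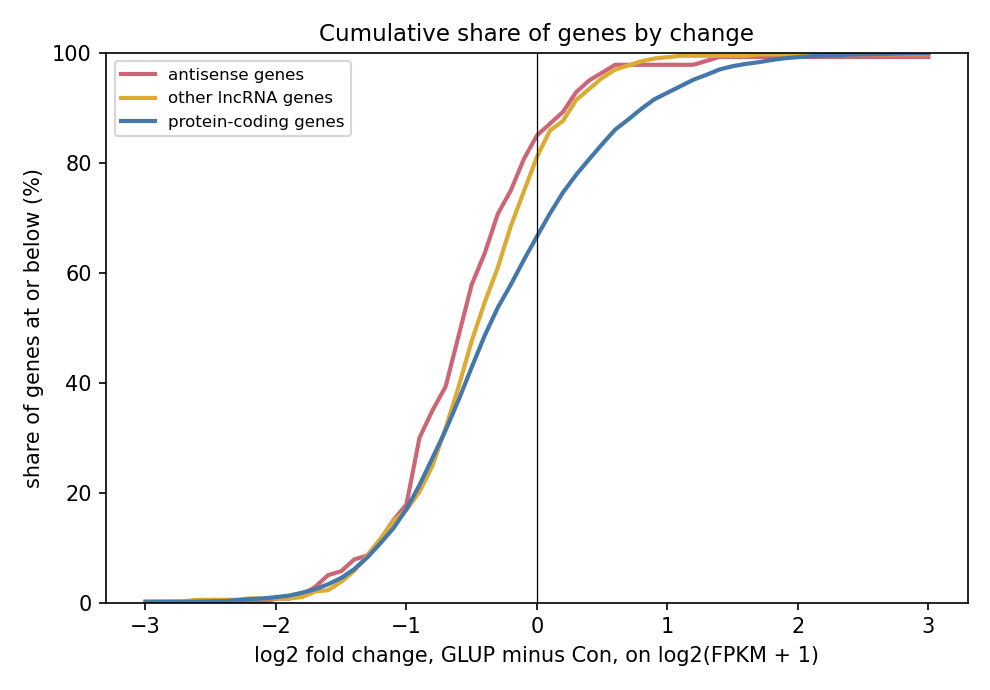
Cumulative share of genes (vertical axis, %) at or below each log2 fold change, GLUP minus Con, on log2(FPKM + 1) (horizontal axis), for 140 antisense genes, 397 other lncRNA genes and 6387 protein-coding genes. The curve of the antisense genes crosses 0 at 85%, that of other lncRNA genes at 81.1% and that of protein-coding genes at 66.6%.

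Other lncRNAs were mostly lower too. Of 397 lncRNA genes tested that were not members, 322 were lower (81.1%), with a median of -0.46, and 54 were lower at the looser mark (13.6%). Divergent transcripts, lncRNAs with symbols ending in -DT that start beside a coding gene and run away from it, numbered 64, of which 51 were lower (median -0.54), 10 at the looser mark, and 0 were higher at it. Protein-coding genes had a median of -0.37. The difference between antisense and other lncRNA genes was not tested.

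Position relative to the partner was read from the GENCODE annotation on GRCh37. Of 138 members whose partner has a row, 39 were head-to-head with starts within 1000 bases, 28 overlapped head-to-head with starts further apart, 44 were internal (1 gene lying within the other) and 26 tail-to-tail, while SVIL-AS1 lay 41925 bases from SVIL. HOXA-AS2 and HOXC-AS3 are named for gene clusters and have no single partner. The classes rest on the outermost ends of each gene, and RefSeq starts place some pairs otherwise. The TUBA1B pair, counted as internal, has starts 3615 bases apart by these ends and 211 in RefSeq. The NHSL1 pair, counted as head-to-head, has starts 23 bases apart by these ends and 119099 in RefSeq. The median change was -0.74 for head-to-head members, with 36 of 39 lower. It was -0.50 for overlapping head-to-head members (24 of 28 lower), -0.58 for internal ones (36 of 44) and -0.57 for tail-to-tail ones (21 of 26). Lower at the looser mark were 9 head-to-head members (23.1%), 3 overlapping head-to-head (10.7%), 6 internal (13.6%) and 5 tail-to-tail (19.2%). The share was 14.5% over all genes, and the classes were not tested against each other. Members whose partner was under 1 FPKM had a median of -0.57 (64 of 75 lower), close to the -0.61 of those whose partner was tested (54 of 63).

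The largest negative change was that of SRP54-AS1, one of the transcribed pseudogenes. It opposes the gene of the GTPase subunit of the signal recognition particle, and was at 19.6 and 48.3 FPKM in Con and 4.94 and 9.41 in GLUP. Both GLUP values were below both Con values, and the Con libraries differed from each other more than the GLUP libraries did. Its log2 fold change was -2.02 ± 0.53 (SE, 2 libraries against 2, limma adjusted p = 0.101), on GRCh37 chr14:35380786-35452118.

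ILRUN-AS1, opposite a regulator of innate immune signalling, stood at 2.20 and 4.72 FPKM in Con and at 0.285 and 0.154 in GLUP, a change of -1.81 ± 0.34. VLDLR-AS1, opposite the very low density lipoprotein receptor gene, was at 8.64 and 9.22 FPKM in Con and 1.57 and 2.23 in GLUP (-1.78 ± 0.29). Neither gene overlapped between groups. IDH1-AS1, opposite the gene of the cytosolic isocitrate dehydrogenase, had 10.0 and 13.5 FPKM in Con and 2.13 and 3.66 in GLUP (-1.73 ± 0.35). For ENTPD3-AS1, named for an ectonucleotidase gene, the values were 4.72 and 7.04 FPKM in Con and 1.00 and 1.31 in GLUP (-1.66 ± 0.30). All 4 genes had a limma adjusted p of 0.10. That their libraries never crossed between groups follows from how these genes were chosen. For each, the lower Con value was over 2 times the higher GLUP value. Among the partners not yet given, VLDLR was at 1.52 and 0.752 FPKM in Con and 0.348 and 0.379 in GLUP, and ENTPD3 was listed at 0 except for 0.0172 FPKM in GLUP 1.

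Several of the more abundant members were lower too. GPRC5D-AS1, named for an orphan receptor gene that was itself listed at 0 in every library, was at 32 and 48.6 FPKM in Con and 12 and 13.7 in GLUP (-1.55 ± 0.36, limma adjusted p = 0.10). It shares 434 exon bases with HEBP1 on the other strand. ZNF232-AS1, opposite a zinc finger gene, was at 24.2 and 39.0 FPKM in Con and 9.40 and 11.5 in GLUP (-1.47 ± 0.37). SVIL-AS1, named for the actin-binding protein supervillin, was at 17.0 and 15.4 FPKM in Con and 10.2 and 11.6 in GLUP (-0.53 ± 0.30, limma adjusted p = 0.260). In these 3 genes the groups did not overlap, and SVIL-AS1 had the narrowest gap. ZNF232 was at 2.38 and 2.32 FPKM in Con and 1.54 and 1.73 in GLUP (-0.35), and SVIL at 0.827 and 1.30 and then 0.403 and 0.374 FPKM, also without overlap. RPH3AL-AS1, named for a Rab effector of exocytosis, did overlap, with 39.9 and 14.7 FPKM in Con on either side of 24.4 and 23.8 in GLUP, and its change of -0.01 ± 0.51 turned to 0.33 after centring and was 0.68 without Con 1 and -0.70 without Con 2. RPH3AL was at most 0.199 FPKM, with 0.127 and 0.0907 in Con and 0.199 and 0.117 in GLUP.

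The other members that were lower at the looser mark ranged from -1.62 for PRR34-AS1 to -1.04 for BBOX1-AS1 and HOXC-AS3. They were BSG-AS1, MAGI2-AS3, BBOX1-AS1, PRR34-AS1, FOXP4-AS1, LIPE-AS1, TTC28-AS1, SLC38A4-AS1, EPHA5-AS1, TRIM7-AS2, ALOX12-AS1, THAP9-AS1, SIPA1L1-AS1, SP2-AS1, RBPMS-AS1, HOXC-AS3 and MAP7-AS1. MAGI2-AS3 was at 18.4 and 17.2 FPKM in Con and 7.21 and 7.82 in GLUP (-1.14 ± 0.30). Of 8 members named for ZNF or ZSCAN zinc finger genes, 7 were lower (median -0.47), 1 at the looser mark, but with the GC trend removed 2 of the 8 were lower and the median was 0.14.

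**Figure D2:**
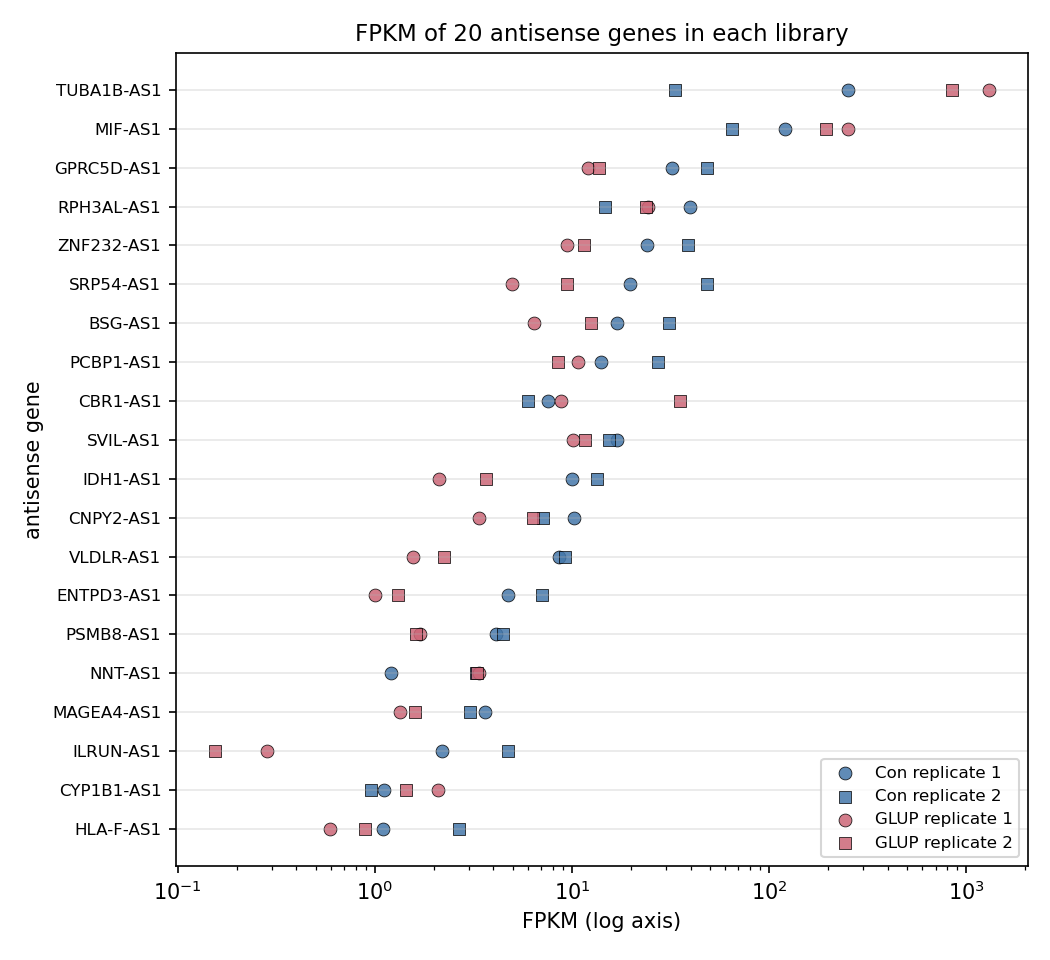
FPKM of 20 antisense genes (rows) in each of the 4 libraries (points, log axis), Con in blue and GLUP in red, ordered by mean. TUBA1B-AS1, at 33.2 and 251 FPKM in Con and 845 and 1304 in GLUP, and MIF-AS1 lie to the right of their Con points in GLUP, whereas most other rows have both GLUP points to the left.

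Positive changes were led by TUBA1B-AS1 and MIF-AS1. TUBA1B-AS1 (GRCh37 chr12:49521565-49582267, plus strand), which spans the gene of an alpha-tubulin, the building block of microtubules, was at 251 and 33.2 FPKM in Con and 1304 and 845 in GLUP. Both GLUP libraries were above both Con libraries, but the Con libraries differed widely, so that the change was 3.50 ± 0.92 (limma adjusted p = 0.101), 2.06 without Con 2 and 4.94 without Con 1. TUBA1B itself was at 819 and 258 FPKM in Con and 3342 and 2559 in GLUP (2.67, limma adjusted p = 0.10). The pair share 1571 exon bases, 34.0% of the exon bases of TUBA1B-AS1, and 68 more are shared with TUBA1A, a closely related tubulin gene. Whether the counting used strand is not given in the sources used here, so reads of the pair may not have been told apart.

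MIF-AS1 lies opposite the gene of macrophage migration inhibitory factor, a cytokine, and was at 121 and 64.8 FPKM in Con and 250 and 196 in GLUP (1.31 ± 0.42, limma adjusted p = 0.115). MIF was at 3087 and 1991 FPKM in Con and 5499 and 5361 in GLUP (1.13, limma adjusted p = 0.101). The groups did not overlap in either gene. MIF-AS1 had a GC content of 64.8%, and its change was 0.72 with the GC trend removed and 0.87 without Con 2, both under a fold of 2. It shares 687 exon bases with MIF, 46.5% of its own, so the strand limit holds here as well.

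CBR1-AS1, opposite a carbonyl reductase gene, had 7.60 and 6.01 FPKM in Con and 8.82 and 35.5 in GLUP, with the difference resting on GLUP 2 (1.29 ± 0.64, limma adjusted p = 0.212, and 0.34 without GLUP 2). CBR1 overlapped between groups, at 371 and 85.7 FPKM in Con and 357 and 369 in GLUP, and its change of 1.02 was -0.032 without Con 2. NNT-AS1, named for the mitochondrial transhydrogenase gene, was at 1.21 and 3.26 FPKM in Con and 3.40 and 3.31 in GLUP (0.50). Con 1 alone stood apart there, and the change was 0.029 without it. NNT was at 1.05 and 0.781 FPKM in Con and 0.459 and 0.462 in GLUP. CYP1B1-AS1, opposite a cytochrome P450 gene, was at 1.11 and 0.957 FPKM in Con and 2.10 and 1.43 in GLUP (0.43), next to 7.56 and 7.04 and then 12.5 and 8.09 FPKM for CYP1B1 (0.42). Without GLUP 1 these changes were 0.26 and 0.13.

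Among the other members with both GLUP libraries above both Con libraries were CDKN2B-AS1, also known as ANRIL, a lncRNA of the INK4 locus (0.19), and GNAS-AS1, a transcript of an imprinted locus (0.42). Neither reached an unadjusted p under 0.05.

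The level of a partner was above that of its antisense gene in 49 of 138 pairs and below it in 89, on the FPKM scale, which is per length. Only the antisense genes had to average 1 FPKM, so every partner under 1 FPKM was below its antisense gene by that rule. Among the 63 tested partners, 49 were above their antisense gene. Of the partners, 75 had a mean under 1 FPKM, 6 of them at 0 in every library, and 63 were tested. Their median change was -0.30, with 41 lower, and both GLUP libraries were below both Con libraries for 32 of them (50.8%) and above for 11 (17.5%), near the 49.7% and 17.5% of all genes. At the looser mark 8 partners were lower (12.7%) and 4 higher (6.35%), and 0 had an adjusted p under 0.05 in limma. This balance turned with the scale, to 2 lower and 9 higher after centring or quantile normalization, with a centred median of 0.04. The counts of higher and lower partners also moved when 1 library was left out, as did the shares of all genes at this mark.

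To ask whether a member and its partner changed together, both changes were set side by side for the 63 pairs. They had the same sign in 42 (66.7%), near the 66.1% of all 1278 pairs of tested genes that oppose each other. Both genes were lower without overlap between groups in 24 pairs (38.1%, against 31.3%), both were higher in 3 (4.76%, against 4.93%) and they moved in opposite directions in 6 (9.52%, against 11%). The other 30 pairs overlapped between groups in at least 1 of their genes. Across the 63 pairs the changes correlated with a Pearson r of 0.41 and a Spearman rho of 0.15, and without TUBA1B-AS1 and MIF-AS1 with 0.14 and 0.08, where all points share the same 4 libraries. Over 934 pairs of protein-coding genes r was 0.33 and rho 0.33. After centring 37 of the 63 pairs had the same sign, against 59.3% of all pairs.

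Both genes were lower in SRP54, where the partner was at 7.14 and 7.40 FPKM in Con and 3.37 and 2.66 in GLUP (-1.05, limma adjusted p = 0.101). The antisense gene was thus the more abundant of that pair in every library. For IDH1, at 36.2 and 16.0 FPKM in Con and 10.8 and 12.7 in GLUP (-0.98, but -0.42 without Con 1 and -1.55 without Con 2), the partner was the more abundant. ZEB1, a repressor that drives epithelial-mesenchymal transition, was at 7.05 and 19.2 FPKM in Con and 2.88 and 2.92 in GLUP (-1.71, and -1.05 without Con 2), beside ZEB1-AS1 at 3.18 and 3.80 and then 1.58 and 1.13 FPKM (-0.93). This pair does not fall under the rule for named genes and was picked after its values were seen. The remaining pairs of this kind were those of ANXA2R, ARF4, CBLL1, CCND2, DHRS4, GABPB1, KRT10, KTN1, LAMTOR5, NEPRO, NHSL1, NIFK, RBPMS, SCOC, THUMPD3, TRIM7, UBE2D3, UBQLN1, ZNF232, ZNF561 and ZNF790.

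The ratio of antisense gene to partner was tested next, and the ILRUN pair had the lowest p. ILRUN was at 1.15 and 1.23 FPKM in Con and 1.04 and 1.33 in GLUP (-0.01), with overlapping groups. ILRUN-AS1 was 191% and 383% of ILRUN in Con and 27.3% and 11.6% in GLUP. The log2 ratio, here and below, was taken with 1 added to each FPKM value, and changed by -1.81 ± 0.43. The percentages have no such addition. The 2 measures can therefore differ widely where a gene is near or below 1 FPKM, as ILRUN-AS1 was in GLUP. In limma over all 1278 opposite-strand pairs, the adjusted p of this ratio was 0.209, the smallest among the member pairs. An unadjusted p under 0.05 for the ratio was found in 10 of 63 pairs (15.9%), against 18.9% of all pairs, and an adjusted p under 0.05 in 0 (0% of all pairs). The count of such pairs moved when 1 library was left out, both among the 63 and among all pairs. The ILRUN ratio changed by -1.42 without Con 2 and by -2.20 without Con 1. A factor common to all FPKM values of a library nearly cancels in this ratio only where both genes are well above 1 FPKM. For scarcer members the added 1 keeps it from cancelling.

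In the 6 tested pairs that moved in opposite directions, the antisense gene was the lower one under GLUP. A lower ratio in both GLUP libraries follows from how these pairs were chosen. The 75 pairs whose partner was under 1 FPKM were not tested. The antisense gene was lower and the partner higher without overlap in 8 of them. The reverse held in 3, those of NNT-AS1, CDKN2B-AS1 and GNAS-AS1. Among the 8, PRR34, NUTM2B, ASB16 and CKMT2 were at 0 in both Con libraries and at most at 0.151 FPKM in GLUP, near the floor. PIK3CD, SP2, TMEM44 and TNS2 were above 0 in every library. The share over all pairs with so scarce a partner was not counted. BSG encodes basigin, a partner of lactate transporters at the cell surface, and was at 39.2 and 23.4 FPKM in Con and 80.2 and 76.2 in GLUP (1.34, limma adjusted p = 0.105). BSG-AS1 was at 17.0 and 31.2 FPKM in Con and 6.43 and 12.5 in GLUP (-1.26, and -0.83 without GLUP 1). No library of 1 group crossed into the other for either gene, which also follows from how the pair was chosen. BSG-AS1 thus went from 43.3% and 133% of BSG in Con to 8.01% and 16.4% in GLUP, a change of the log2 ratio of -2.6 ± 0.65 (limma adjusted p = 0.209). The pair is head-to-head and shares 140 exon bases, and the BSG start region is the one printed above with CATTCC.

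PSMB8 encodes a catalytic subunit of the immunoproteasome, which interferon induces, and was at 24.0 and 6.97 FPKM in Con and 32.3 and 31.4 in GLUP (1.22, limma adjusted p = 0.198, and 0.39 without Con 2). PSMB8-AS1 was at 4.12 and 4.48 FPKM in Con and 1.70 and 1.61 in GLUP (-1.0 ± 0.25, limma adjusted p = 0.10). The antisense values were alike within each group, whereas Con 2 was far below Con 1 for PSMB8. The ratio went from 17.2% and 64.2% to 5.27% and 5.14% (-2.21 ± 0.63, limma adjusted p = 0.211, and -1.34 without Con 2). PSMB8-AS1 also shares 672 exon bases with TAP1 on the other strand and 174 with PSMB9 on its own strand, and PSMB9 had a mean of 1555 FPKM.

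HLA-F, a nonclassical MHC class I gene, had 10.3 and 1.52 FPKM in Con and 21.8 and 19.5 in GLUP (2.02, and 0.93 without Con 2), and HLA-F-AS1 had 1.10 and 2.67 and then 0.595 and 0.893 FPKM (-0.68, and -0.27 without Con 2). MAGEA4, a cancer-testis antigen, had 38.4 and 7.85 FPKM in Con and 61.3 and 48.9 in GLUP (1.58, and 0.50 without Con 2), and MAGEA4-AS1 had 3.63 and 3.04 and then 1.34 and 1.59 FPKM (-0.81). Con 2 was the lowest library for both partners. The log2 ratio changed by -2.69 ± 0.97 in the HLA-F pair and by -2.39 ± 0.70 in the MAGEA4 pair, and without Con 2 by -1.21 and -1.41. The HLA-F ratio changed by -1.71 with the GC trend removed.

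CNPY2 was at 118 and 72.1 FPKM in Con and 164 and 169 in GLUP (0.84), against 10.3 and 7.15 and then 3.40 and 6.32 FPKM for CNPY2-AS1 (-0.76). Its ratio was the steadiest of the 6 within Con, at 8.71% and 9.91%, and was 2.07% and 3.73% in GLUP (-1.60 ± 0.41, limma adjusted p = 0.209). PCBP1, an RNA-binding protein of poly(C) tracts, was at 50.7 and 39.4 FPKM in Con and 61.1 and 53.9 in GLUP (0.35), against 14.1 and 27.4 and then 10.8 and 8.53 FPKM for PCBP1-AS1 (-0.96). Without Con 2 the changes were 0.49 for CNPY2, 0.18 for PCBP1 and -0.51 for PCBP1-AS1, and without GLUP 1 that of CNPY2-AS1 was -0.39. The PCBP1 ratio changed by -1.32 ± 0.52, and by -0.68 without Con 2. Over the 6 pairs, the exon bases shared were between 3.76% and 27.4% of those of the antisense gene.

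**Figure D3:**
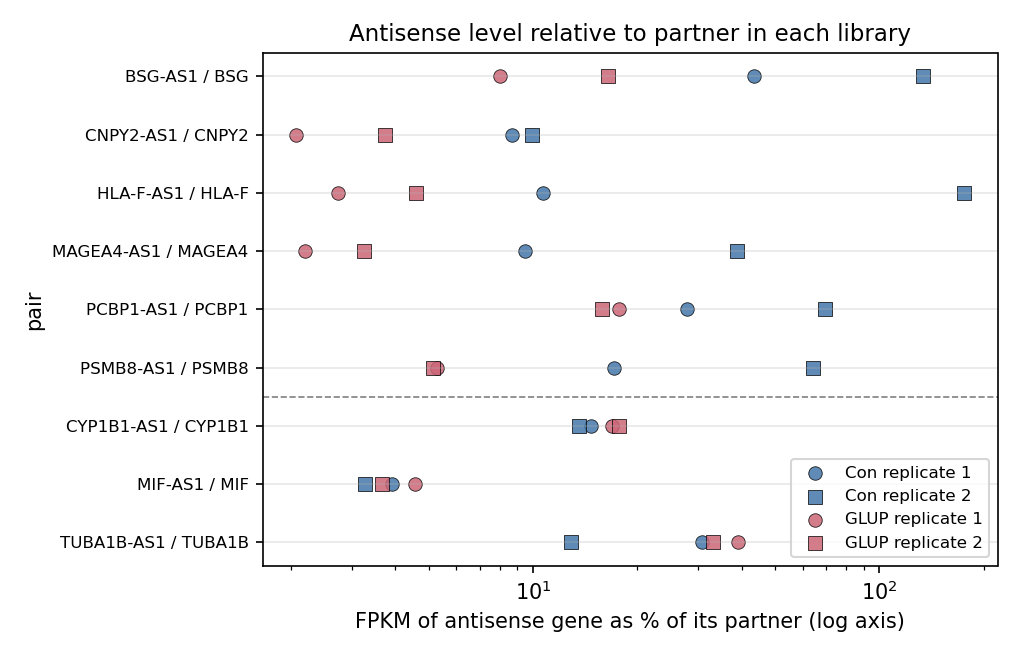
FPKM of the antisense gene as a percentage of its partner (log axis) in each of the 4 libraries (points) for the 6 pairs that moved in opposite directions (above the dashed line) and the 3 in which both genes were higher (below it). In the upper 6 rows both GLUP points are to the left of both Con points, which follows from how those pairs were chosen. For BSG they are at 8.01% and 16.4% in GLUP against 43.3% and 133% in Con. In the MIF and CYP1B1 rows all 4 points lie close together.

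The ratio was also followed in the 3 pairs in which both genes were higher. MIF-AS1 was 3.92% and 3.26% of MIF in Con and 4.55% and 3.65% in GLUP (log2 ratio change 0.18 ± 0.36, limma adjusted p = 0.801). CYP1B1-AS1 was between 13.6% and 17.7% of CYP1B1 in every library. TUBA1B-AS1 was 30.7% and 12.9% of TUBA1B in Con and 39.0% and 33.0% in GLUP (0.83 ± 0.51, limma adjusted p = 0.398). This change was 0.22 without Con 2, 1.44 without Con 1 and 1.51 with the GC trend removed.

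Same-sign changes were found in 14 of 19 head-to-head pairs, 12 of 18 internal pairs, 9 of 15 overlapping head-to-head pairs and 7 of 11 tail-to-tail pairs. They were found in 7 of the 9 pairs in which at least 25% of the antisense exon bases are shared with the partner, and in 7 of the 10 pairs that share no exon base. Among 169 pairs of a protein-coding gene with a lncRNA that is not a member, the share was 58.6%. None of these shares was tested against another, and RefSeq starts would put some pairs in another position class.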

How the data were processed

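RNA from 4 HGC-27 libraries (2 GLUP, 2 Con) was measured. The authors used the Majorbio I-Sanger cloud platform for the reads and deposited FPKM values per gene. Their processing notes name HISAT2, Cufflinks, RSEM and GRCh38.p10 without versions or roles, whereas 53057 of 62492 row identifiers have the form of GENCODE annotation lifted to GRCh37. Strand use and depth are not given in the sources used here. The 49 second copies of pseudoautosomal genes were summed into 62443 genes, and 99.55% of identifiers matched a symbol.

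Genes that averaged 1 FPKM or more were tested on log2(FPKM + 1) with limma 3.58.1 in R 4.3.3 (2-sided, variances moderated along the mean, Benjamini-Hochberg over 7588 genes). Fold changes on this scale understate those of low genes. The ratio test used the difference of log2(FPKM + 1) within each of 1278 opposite-strand pairs. Both were tested on simulated data. Members and lists were chosen with earlier results of these data known. Genes given by library were the 10 most abundant members, the 5 largest changes each way without overlap between groups, their partners, pairs moving in opposite directions without overlap, and the 3 genes on either side of 1 FPKM. MAGI2-AS3, CDKN2B-AS1, GNAS-AS1 and ZEB1 with its antisense gene were added after their values were seen. Alternatives were another pseudocount, other level filters, centring, quantile normalization, GC correction, the replicate number as a block, no variance trend, a fold of 1.5 and leaving out each library.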

Additional observations from a re-analysis of the deposited data

How the results depend on the processing

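Counts below are of genes at an unadjusted p under 0.05 and a fold over 2 unless said otherwise. The 24 lower members were 43 with a pseudocount of 0.1, 48 at a fold of 1.5, 12 at a mean of at least 5 FPKM, 11 after centring and 12 after quantile normalization, and between 11 and 44 when 1 library was left out. The 2 higher members were between 1 and 3 without 1 library. The 8 lower partners were 13 with the smaller pseudocount, 17 at a fold of 1.5, 5 at 5 FPKM, 2 after centring or quantile normalization and 4 with the GC trend removed, and between 3 and 11 without 1 library. The 4 higher partners were 9 after centring or quantile normalization and between 1 and 12 without 1 library. The 10 pairs with an unadjusted p under 0.05 for the ratio were 3 at 5 FPKM and between 1 and 33 without 1 library. The cause of these changes was not tested, except that a fold of 1.5 admits more genes and 5 FPKM fewer by construction.

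At an adjusted p under 0.05 in limma, the 2 genes of all tested were 1 with the smaller pseudocount, after centring and after quantile normalization, 0 with all genes above 0, at 5 FPKM, with the GC trend removed and without the variance trend, and between 4 and 2710 without 1 library. Members called went from 0 to between 0 and 47, and pairs called from 0 to between 0 and 32. The high counts arose without a Con library, where only the GLUP pair sets the spread and the lone Con library is assumed to vary alike.

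Equal replicate numbers are tied to nothing in the labels, and the deviations of same-numbered libraries correlated at 0.13 over 2 pairs. With the replicate number as a block, 7 partners were higher and 7 member pairs had an adjusted p under 0.05 for the ratio. The block with the GC correction gave 16 genes of all tested and 1 member at an adjusted p under 0.05, 4 lower partners and 0 member pairs with an adjusted p under 0.05 for the ratio.

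Some directions that turned belonged to changes near 0 or resting on 1 library, and others did not. With the GC trend removed, the number of members below 0 went from 119 to 89. KCNMB2-AS1 went from -0.57 to 0.22 and CCDC144NL-AS1 from -0.69 to 0.034, although neither overlapped between groups. RPH3AL-AS1 was 0.33 after centring and after quantile normalization, 0.0063 without GLUP 2, and between -0.70 and 0.68 without 1 library. ILRUN was 0.34 after centring, 0.20 after quantile normalization, 0.035 with the GC trend removed with or without the block, and between -0.10 and 0.088 without 1 library. CBR1 was -0.032 without Con 2 and lay between that and 2.07 without 1 library. Depth is unknown, so no limit from counting can be given for the scarce members.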
